A study of Homo sapiens with 14 samples.

Results

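The mRNAs of 39 genes of homologous recombination and Fanconi repair were followed in the human prostate cancer line CWR22Rv1 after 72 h of treatment with inhibitors of fucosylation or sialylation. The 39 genes were chosen by name, and all 39 had a row among the 27819 genes shared by the 4 count tables. The groups were the vehicle DMSO (3 libraries), 30 µM Fucotrim I (3 libraries), 60 µM Fucotrim II (2 libraries), 100 µM SGN-2FF (3 libraries) and 2 µM P-SiaFNEtoc (3 libraries). Both Fucotrims are rhamnose-1-phosphate derivatives made to block GMDS, an enzyme of GDP-fucose synthesis, SGN-2FF is 2-fluorofucose, a fluorinated fucose analogue, and P-SiaFNEtoc is an inhibitor of sialylation. All libraries came from the same cell line, no gene was altered by design in any group, and the 4 comparisons share the same 3 DMSO libraries. The doses differ between the inhibitors, so their values stand side by side and the inhibitors were not compared with each other.

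Homologous recombination mends double-strand breaks of DNA by copying from the sister chromatid. The break is sensed by MRE11, RAD50 and NBN, its ends are trimmed to single strands, and BRCA1, PALB2 and BRCA2 prepare them for strand exchange with the help of XRCC2, XRCC3 and their relatives. The Fanconi pathway removes crosslinks between the DNA strands: its core complex, with the E2 enzyme UBE2T, attaches ubiquitin to the pair FANCD2 and FANCI, which brings in nucleases. These pathways act mainly in S and G2 phase, and defects in BRCA2, ATM and related genes are known in advanced prostate cancer.

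Libraries held 12553094 to 19981453 counts on genes, of which the 39 genes took 0.143% to 0.23%. Counts of a member in 1 library lay between 46 (FANCB) and 3414 (FANCI), and all 39 passed the filter on low counts in each of the 4 comparisons. All 8 markers of luminal prostate cancer cells were present in the 14 libraries. Of 10 markers of other cell types, 8 stayed under 1 CPM (counts scaled to 1000000 per library, with TMM factors) in every library, while COL1A1 and SYP were detected. The summed level of these 10 was 116 to 127 CPM in DMSO, 130 to 147 with Fucotrim I, 160 to 179 with Fucotrim II, 111 to 124 with SGN-2FF and 123 to 128 with P-SiaFNEtoc, and COL1A1 and SYP carried nearly all of it. CD3E was at 0 in every library. The summed level of the 8 luminal markers was also higher in each treated group than the 2430 to 2535 CPM of DMSO. It was 3201 to 3289 with Fucotrim I, 2956 to 3260 with Fucotrim II, 2908 to 3023 with SGN-2FF and 2778 to 2849 with P-SiaFNEtoc.

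The transcripts of the pathway differed widely in their level in DMSO. Per length of transcript, UBE2T stood first, with 191 ± 10.7 CPM per kb (SD, n = 3), and its 3 libraries lay above those of every other member. FANCI (35.2 ± 1.68), FANCG (35.2 ± 0.618) and RAD51AP1 (33.6 ± 2.07 CPM per kb) followed, and each overlapped its neighbour in this order. RBBP8 came next at 29.4 ± 0.418 CPM per kb, apart from its neighbours. BRCA1 had 21.6 ± 0.108 CPM per kb and BRCA2 2.24 ± 0.172. The lowest 4 were MRE11, BRCA2, FANCB and RAD51D, from 2.54 ± 0.334 down to 1.37 ± 0.1 CPM per kb, and of these neighbours only RAD51D lay apart. Lengths were those of 1 annotated transcript per gene, and the isoforms used in these cells were not measured.

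**Figure D1:**
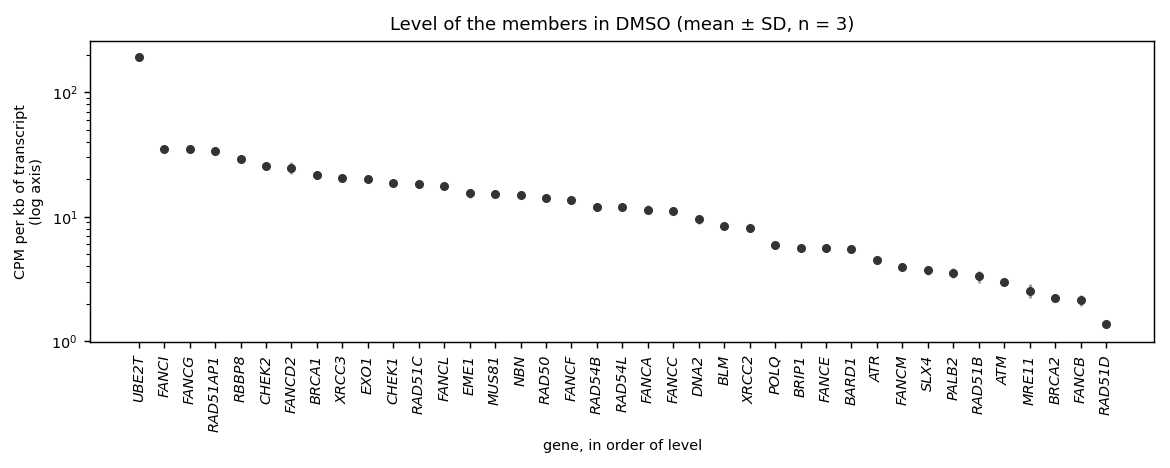
Level of the 39 members in DMSO, in CPM per kb of the annotated transcript on a log axis, ordered from UBE2T (191) to RAD51D (1.37). Points are means of 3 libraries and bars are SD, many of them smaller than the point.

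With Fucotrim I, 24 of the 39 members were lower than in DMSO and 0 were higher at an adjusted p under 0.05 in edgeR. Of all genes tested, 22.1% were lower and 21.6% higher. Most members, 37 of the 39, had at least 10 CPM in DMSO, and of all genes at that level 29.1% were lower and 22.2% higher. The members' median log2 fold change was -0.20, against 0.00 over all genes tested and -0.04 over those with at least 10 CPM. In these 24 members every Fucotrim I library lay below every DMSO library, which held for 27.4% of all genes. No member was higher at an unadjusted p under 0.05 either, nor in DESeq2 or limma-voom. DESeq2 called 19 lower and limma-voom 24, where 5016 and 6169 genes were called in either direction. At an adjusted p under 0.01 edgeR called 16 lower, where 4296 genes were called. The falls were moderate: FANCM, the largest, fell to a level 38.5% below DMSO.

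Fucotrim II gave 26 of the 39 members lower and 0 higher, beside 25.7% of all genes lower and 25.6% higher. Of genes with at least 10 CPM in DMSO, 33.9% were lower and 25.3% higher. The median log2 fold change of the members was -0.40, against 0.01 over all genes tested, and both libraries lay below all 3 DMSO libraries in 28 members and in 33.8% of all genes. As with Fucotrim I, no member was higher at an unadjusted p under 0.05, in DESeq2 or in limma-voom. DESeq2 called 25 lower and limma-voom 26. FANCB, XRCC2, RAD54B and FANCM showed the largest called falls, with log2 fold changes of -1.27 to -0.91. The markers COL1A1 (23.2 and 29.2 CPM, against 16.8 to 18.1 in DMSO) and SYP (130 and 156, against 97.3 to 110 CPM) were also higher in this group, and their part in the result was not tested.

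With P-SiaFNEtoc, 18 members were lower and 0 higher, where 7.33% of all genes were lower and 9.02% higher. Of genes with at least 10 CPM in DMSO, 9.99% were lower and 10.3% higher. The median log2 fold change was -0.16 for the members and 0.00 for all genes tested, and 19 members had every treated library below every DMSO library, as had 17.2% of all genes. At an unadjusted p under 0.05, 24 members were lower and 1 was higher (MUS81). The share of all genes at this looser cut is not given here, and the shares above are for the adjusted p. DESeq2 and limma-voom called 13 and 17 lower and 0 higher. A single fit of all 14 libraries called 10 lower.

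SGN-2FF moved few members. In its comparison 5 were lower and 3 were higher, against 9.08% and 11.5% of all genes, and 10 had libraries wholly below DMSO, against 19.5% of all genes. These shares, 12.8% lower and 7.69% higher, were near the background, and the median log2 fold change of the members was -0.06 against 0.00 over all genes tested. Of genes with at least 10 CPM in DMSO, 12.2% were lower and 12.7% higher. The lower members were BRCA1, BRCA2, NBN, RBBP8 and FANCC, and the higher ones XRCC3, RAD54L and FANCA. The counts rested on single libraries: the lower members numbered 3 without SGN-2FF replicate 1 and 1 (BRCA1) without SGN-2FF replicate 2, and the higher ones 0 without either of these or without DMSO replicate 1, and 1 without DMSO replicate 3. DESeq2 called 3 lower and 0 higher.

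**Figure D2:**
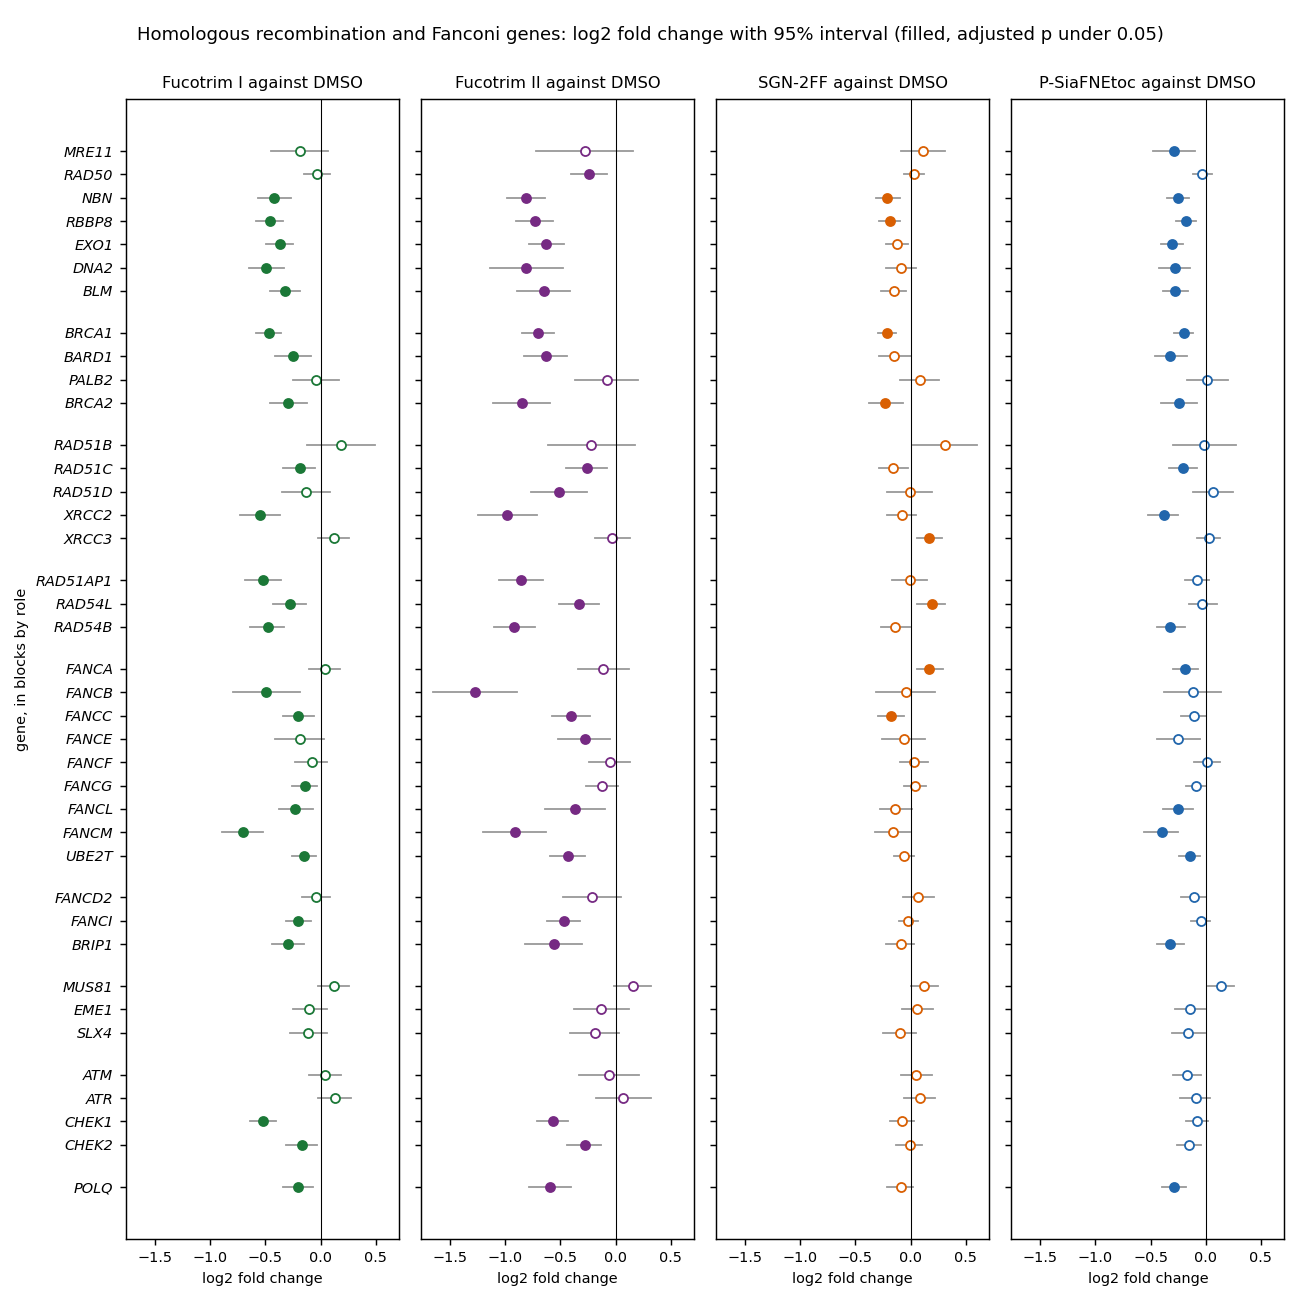
log2 fold change of the 39 members against DMSO with its 95% interval, in blocks by role from break sensing (top) to theta-mediated end joining (bottom); filled points passed an adjusted p under 0.05 in edgeR. Filled points lie left of 0 for 18 members with P-SiaFNEtoc, 24 with Fucotrim I and 26 with Fucotrim II, and on both sides with SGN-2FF (5 lower, 3 higher).

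The transcripts of these genes are AT-rich, and base composition moved with the fold changes in all 4 comparisons. The median GC content of the members' transcripts was 41.8%, against 48.5% over the genes tested with Fucotrim I, and 21 of the 39 were among the 25% of genes with the lowest GC. Of these AT-rich genes, 42.8% were lower with Fucotrim I, and 17 of the 21 members. With Fucotrim II 53% of them were lower, and 18 of the 21 members. With P-SiaFNEtoc it was 17.6% and 15 of the 21, and with SGN-2FF 16% and 4 of the 21. Over all genes, which are not independent replicates and which share their libraries, Spearman's rho between GC content and log2 fold change was 0.48, 0.53, 0.42 and 0.29 for Fucotrim I, Fucotrim II, P-SiaFNEtoc and SGN-2FF.

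Counts changed when a trend with GC was removed from each library, a correction added after seeing the data. With Fucotrim I, 16 members were then lower and 2 higher, against 19.8% and 19.3% of all genes. The higher ones were ATM and ATR, whose log2 fold changes became 0.21 (adjusted p = 0.0108) and 0.29 (adjusted p = 0.00096). Members no longer called with Fucotrim I, with their corrected log2 fold changes, were BRCA2 (-0.09), BARD1 (-0.07), RAD51C (-0.06), BRIP1 (-0.12), FANCB (-0.30), FANCI (-0.09), FANCL (-0.07), UBE2T (-0.04), CHEK2 (-0.09) and POLQ (-0.07), and FANCE was newly lower (-0.33). With Fucotrim II, 26 were lower and 2 higher (again ATM and ATR), against 23.2% and 22.7% of all genes, but not the same 26 as without the correction. RAD50, RAD51C and FANCL were no longer called (-0.01, -0.04 and -0.09), and XRCC3, FANCG and SLX4 were newly lower. With P-SiaFNEtoc 14 were lower and 0 higher, against 4.92% and 6.78%, where BRCA2 (-0.14), RAD51C (-0.14), MRE11 (-0.19), NBN (-0.15), RBBP8 (-0.10), FANCL (-0.17) and UBE2T (-0.09) were no longer called and FANCE (-0.32), FANCG (-0.16) and SLX4 were newly lower. With SGN-2FF 4 were lower and 2 higher, against 11.3% and 12.2%, without BRCA2 (-0.15) and XRCC3 (0.09). SLX4, whose transcript has 57.6% GC, was lower after the correction with Fucotrim I (-0.24), Fucotrim II (-0.42) and P-SiaFNEtoc (-0.23). Without the correction the same fits did not call it. The part of base composition in the uncorrected result was not tested.

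**Figure D3:**
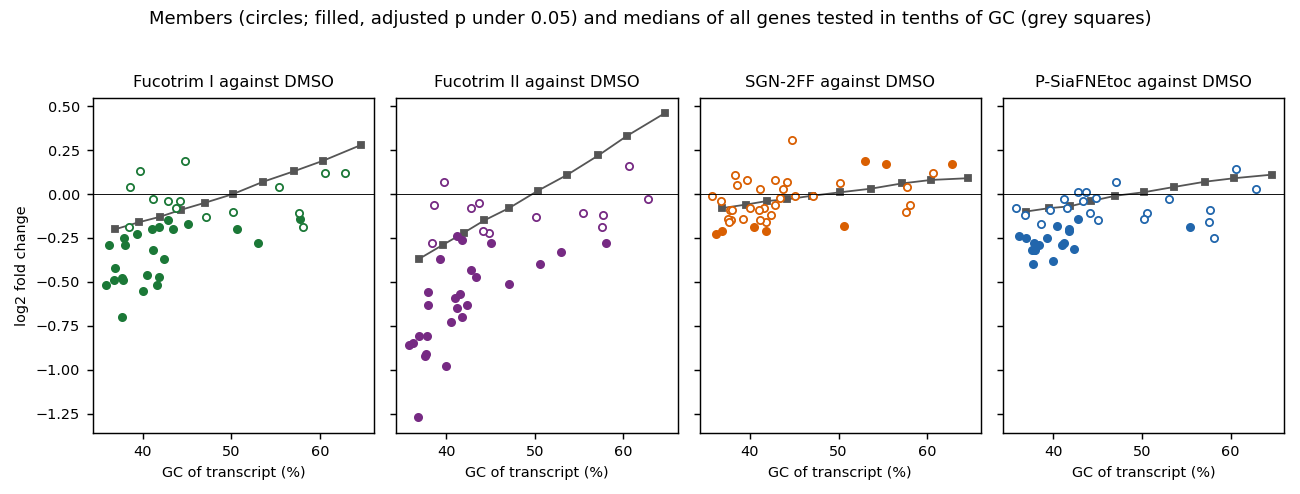
log2 fold change of each member against the GC content of its transcript, with medians of all genes tested in 10 equal bins of GC content (grey squares). The grey line climbs from low to high GC, and 31 of the 39 members with Fucotrim I, 34 with Fucotrim II, 31 with P-SiaFNEtoc and 21 with SGN-2FF lie below the median of their bin.

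Promoter sequences are shown for members with large falls (FANCM, XRCC2 and RAD51AP1), for BRCA1, and for PALB2 and MUS81. Neither of this last pair was called when each inhibitor was fitted alone with DMSO. A single fit of all 14 libraries called MUS81 higher with Fucotrim II. The RefSeq promoter table (build GRCh38.p14) had entries for 35 of the 39 members, and the 250 bases before the start site are printed 5′ to 3′ on the gene's strand, in lower case. Capitals mark a core of the E2F site (the letters TTCCCGC, the letters TTGGCGC, the letters TTCGCGC or the letters TTGCCGC, on either strand) or a CCAAT box (CCAAT on either strand). E2F factors drive genes of S phase, and the CCAAT box binds NF-Y.
FANCM (chr14:45135680-45135929, plus strand): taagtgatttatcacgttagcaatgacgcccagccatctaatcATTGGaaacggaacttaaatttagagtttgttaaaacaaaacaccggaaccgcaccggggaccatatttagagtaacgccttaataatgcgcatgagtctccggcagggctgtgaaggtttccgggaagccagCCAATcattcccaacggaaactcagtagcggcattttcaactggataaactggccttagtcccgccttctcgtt
XRCC2 (chr7:152676142-152676391, minus strand): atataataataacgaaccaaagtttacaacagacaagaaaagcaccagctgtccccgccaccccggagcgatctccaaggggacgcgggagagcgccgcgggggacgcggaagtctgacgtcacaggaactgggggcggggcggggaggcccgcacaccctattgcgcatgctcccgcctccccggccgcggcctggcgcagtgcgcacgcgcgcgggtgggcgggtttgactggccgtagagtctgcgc
RAD51AP1 (chr12:4538640-4538889, plus strand): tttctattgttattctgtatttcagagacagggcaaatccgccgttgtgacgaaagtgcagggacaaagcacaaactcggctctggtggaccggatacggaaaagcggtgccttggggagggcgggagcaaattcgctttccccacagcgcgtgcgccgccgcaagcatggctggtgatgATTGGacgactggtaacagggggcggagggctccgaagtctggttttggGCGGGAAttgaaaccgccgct
BRCA1 (chr17:43125365-43125614, minus strand): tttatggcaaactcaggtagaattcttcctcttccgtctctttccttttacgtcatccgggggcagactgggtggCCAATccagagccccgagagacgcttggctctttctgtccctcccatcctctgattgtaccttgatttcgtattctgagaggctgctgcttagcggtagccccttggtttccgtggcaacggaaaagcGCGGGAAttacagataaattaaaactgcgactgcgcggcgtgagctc
PALB2 (chr16:23641311-23641560, minus strand): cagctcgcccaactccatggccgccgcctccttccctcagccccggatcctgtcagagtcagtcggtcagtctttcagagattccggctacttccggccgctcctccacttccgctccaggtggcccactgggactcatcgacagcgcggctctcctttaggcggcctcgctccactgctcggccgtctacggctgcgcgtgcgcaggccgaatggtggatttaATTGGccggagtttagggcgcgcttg
MUS81 (chr11:65860183-65860432, plus strand): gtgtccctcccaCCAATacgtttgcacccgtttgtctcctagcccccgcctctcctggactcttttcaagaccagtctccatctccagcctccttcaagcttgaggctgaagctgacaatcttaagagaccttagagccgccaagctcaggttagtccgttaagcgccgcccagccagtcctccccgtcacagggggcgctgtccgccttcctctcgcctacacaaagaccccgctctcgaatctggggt

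The E2F core was in the window of 10 of the 35 members, and in 13% of all genes in the table. It was found in BRCA1 and RAD51AP1 among the 6 printed, at positions -47 and -21 from the start. A CCAAT box was in 16 of the 35 members and in 37% of all genes, and of the printed windows only that of XRCC2 had neither motif. Of the 22 members with an entry that were lower with Fucotrim II, 7 had the E2F core and 9 a CCAAT box, and of the 13 not lower, 3 and 7. The letters TTTGAA (on either strand), the cell cycle homology region of G2 and M phase genes, were in 5 of the 35 members and in 16.1% of all genes.

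Without the GC correction, most genes of break sensing and end resection were lower with the Fucotrims and P-SiaFNEtoc. They are MRE11, RAD50 and NBN, RBBP8 (CtIP), which starts resection, EXO1 and DNA2, nucleases that extend it, and BLM, a helicase that works with them. Of these 7 genes, 5 were lower with Fucotrim I, 6 with Fucotrim II, 6 with P-SiaFNEtoc and 2 with SGN-2FF, and their median log2 fold changes were -0.37, -0.65, -0.28 and -0.12. The shares of all genes lower, which stand beside the counts of the other roles too, were 22.1%, 25.7%, 7.33% and 9.08%. Under the GC correction MRE11, NBN and RBBP8 were not called with P-SiaFNEtoc. NBN had 68.7, 70.4 and 70.5 CPM in the DMSO libraries, 48.4, 59 and 48.5 with Fucotrim I, 42.4 and 37.8 with Fucotrim II, 60.7, 57.7 and 62 with SGN-2FF and 56.7, 57 and 62.3 with P-SiaFNEtoc. All treated libraries lay below the DMSO libraries, and the log2 fold changes (± SE) were -0.42 ± 0.07, -0.81 ± 0.08, -0.21 ± 0.05 and -0.25 ± 0.05, with adjusted p of 6.81e-05, 4.45e-05, 0.00416 and 0.000758. The SGN-2FF call was lost without SGN-2FF replicate 2 (adjusted p = 0.0535), and the P-SiaFNEtoc call under the GC correction (-0.15, 0.052).

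RBBP8 was also lower in all 4 comparisons without the GC correction. Its levels were 97.3, 96.8 and 94.8 CPM in DMSO, 69.2, 74.1 and 65.8 with Fucotrim I, 61.8 and 54.4 with Fucotrim II, 83.5, 79.9 and 87.3 with SGN-2FF and 84, 82.6 and 88.2 with P-SiaFNEtoc, so that no treated library reached the DMSO range. The log2 fold change was -0.46 ± 0.06 (adjusted p = 2.58e-06) with Fucotrim I, -0.73 ± 0.07 (6.76e-05) with Fucotrim II, -0.19 ± 0.05 (0.00406) with SGN-2FF and -0.18 ± 0.05 (0.00638) with P-SiaFNEtoc. The last pair of calls was lost without replicate 2 of the inhibitor (adjusted p = 0.0576 and 0.0553), and the P-SiaFNEtoc call also under the GC correction (-0.10, 0.113). EXO1 had 69.5, 72 and 68.1 CPM in DMSO, 52.3, 55 and 54.7 with Fucotrim I, 45.9 and 45.1 with Fucotrim II, 60.7, 65.9 and 64.6 with SGN-2FF and 57.6, 54.4 and 56.1 with P-SiaFNEtoc. Its groups did not overlap with DMSO in any comparison, and it was lower with Fucotrim I (-0.37 ± 0.06, adjusted p = 3.89e-05), Fucotrim II (-0.63 ± 0.07, adjusted p = 9.08e-05) and P-SiaFNEtoc (-0.31 ± 0.05, adjusted p = 3.99e-05) but did not pass the test with SGN-2FF (-0.12 ± 0.05, 95% interval -0.22 to -0.02).

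DNA2 and BLM were lower with the same 3 inhibitors, by log2 fold changes of -0.49 and -0.32 with Fucotrim I, -0.81 and -0.65 with Fucotrim II, and -0.28 and -0.28 with P-SiaFNEtoc. The partners of NBN moved less. RAD50 was called only with Fucotrim II, at -0.24 ± 0.07 (adjusted p = 0.0192), and this call was lost without any 1 of the DMSO libraries (adjusted p = 0.0558 to 0.0663). MRE11 was called only with P-SiaFNEtoc, at -0.29 ± 0.09 (adjusted p = 0.0273), and its adjusted p was 0.183 without DMSO replicate 2, 0.0888 without DMSO replicate 3, 0.0835 without P-SiaFNEtoc replicate 2 and 0.0679 without P-SiaFNEtoc replicate 3. With Fucotrim II the MRE11 libraries stood far apart, at 18 and 10.8 CPM, and MRE11 was called lower without replicate 1 of that group (-0.69, adjusted p = 0.000469). It was also called with Fucotrim I without Fucotrim I replicate 2 (-0.34, 0.0398), and with Fucotrim II under a replicate block. RAD50 shares 91% of its exon bases with an annotated readthrough gene on the same strand, so its counts are uncertain.

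The BRCA complexes, which act after resection, showed falls of BRCA1, BARD1 and BRCA2 and none of PALB2. Of these 4 genes, 3 were lower with Fucotrim I, 3 with Fucotrim II, 3 with P-SiaFNEtoc and 2 with SGN-2FF. BRCA1, on chromosome 17, had 154, 153 and 154 CPM in DMSO, 111, 114 and 107 with Fucotrim I, 97 and 92.1 with Fucotrim II, 128, 134 and 131 with SGN-2FF and 136, 136 and 126 with P-SiaFNEtoc. The SD of the DMSO libraries was 0.764 CPM, and every treated library was below them. Log2 fold changes were -0.47 ± 0.05 (adjusted p = 4.22e-07), -0.70 ± 0.06 (3.56e-05), -0.21 ± 0.04 (0.000491) and -0.20 ± 0.04 (0.00124), and each kept its call without any 1 library and under the GC correction.

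BRCA2, the mediator that acts on resected single strands, had 24.6, 27.2 and 28.7 CPM in DMSO, 21.3, 23.2 and 21 with Fucotrim I and 16.5 and 13.5 with Fucotrim II. With SGN-2FF it had 22.3, 21.3 and 24.8 CPM and with P-SiaFNEtoc 24, 24.1 and 19.2. The Fucotrim II libraries were the lowest, and 1 SGN-2FF library overlapped with DMSO. The log2 fold change was -0.29 ± 0.08 (adjusted p = 0.00775) with Fucotrim I and -0.85 ± 0.12 (adjusted p = 0.000303) with Fucotrim II. With SGN-2FF it was -0.23 ± 0.08 (adjusted p = 0.0368) and with P-SiaFNEtoc -0.24 ± 0.08 (adjusted p = 0.0356). Except with Fucotrim II these calls were lost without single libraries and under the GC correction (-0.09, -0.15 and -0.14, adjusted p of 0.389, 0.118 and 0.259). The adjusted p was 0.054 with Fucotrim I without DMSO replicate 3, reached 0.217 with SGN-2FF without SGN-2FF replicate 2 (also lost without SGN-2FF replicate 1 or DMSO replicates 2 or 3), and reached 0.216 with P-SiaFNEtoc without P-SiaFNEtoc replicate 3 (also lost without DMSO replicates 2 or 3).

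BARD1, the partner of BRCA1, had 28.4, 31.4 and 30.2 CPM in DMSO, 23.3, 25.7 and 26.6 with Fucotrim I, 20 and 18.9 with Fucotrim II, 25, 27.6 and 27.9 with SGN-2FF and 25.3, 24.4 and 22.2 with P-SiaFNEtoc. No treated library reached the DMSO range. It was lower with Fucotrim I (-0.25 ± 0.08, adjusted p = 0.0133), Fucotrim II (-0.63 ± 0.09, 0.000335) and P-SiaFNEtoc (-0.32 ± 0.07, 0.00184). The Fucotrim I call was lost without DMSO replicate 2 (adjusted p = 0.0593) or Fucotrim I replicate 1 (0.0684). PALB2, which bridges BRCA1 and BRCA2, overlapped with DMSO in all 4 comparisons, with log2 fold changes from -0.08 with Fucotrim II (95% interval -0.37 to 0.20) to 0.08 with SGN-2FF (-0.10 to 0.26).

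Among RAD51B, RAD51C, RAD51D, XRCC2 and XRCC3, which form complexes that help strand exchange, XRCC2 had the largest fall with the Fucotrims and P-SiaFNEtoc. Of these 5 genes, 2 were lower with Fucotrim I, 2 with P-SiaFNEtoc and 3 with Fucotrim II, and with SGN-2FF 1 was higher. XRCC2 had 36.7, 42.3 and 38.1 CPM in DMSO, 25.9, 30 and 23.4 with Fucotrim I, 22.4 and 17.4 with Fucotrim II, 35.3, 37.2 and 37.4 with SGN-2FF and 31.9, 28.4 and 29.2 with P-SiaFNEtoc. Libraries of Fucotrim I, Fucotrim II and P-SiaFNEtoc were all below DMSO, and those of SGN-2FF overlapped with it. The log2 fold change was -0.55 ± 0.09 (adjusted p = 3.28e-05) with Fucotrim I, -0.98 ± 0.12 (0.000166) with Fucotrim II, -0.38 ± 0.07 (0.000142) with P-SiaFNEtoc and -0.08 ± 0.06 (0.412) with SGN-2FF.

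RAD51C, which pairs with XRCC3 in 1 complex and with RAD51B, RAD51D and XRCC2 in another, had 43.1, 48.2 and 50 CPM in DMSO, 39.6, 42.8 and 40.8 with Fucotrim I, 39.3 and 39.4 with Fucotrim II, 45.5, 38.1 and 42.6 with SGN-2FF and 40.6, 38 and 43.3 with P-SiaFNEtoc. DMSO replicate 1 was the lowest of its group, and P-SiaFNEtoc and SGN-2FF libraries reached above it. Its log2 fold change was -0.19 ± 0.07 (adjusted p = 0.0297), -0.26 ± 0.08 (0.0238), -0.16 ± 0.07 (0.1) and -0.21 ± 0.06 (0.0189) with Fucotrim I, Fucotrim II, SGN-2FF and P-SiaFNEtoc. Without DMSO replicate 3 the adjusted p of the 3 calls was 0.152, 0.0946 and 0.112. They were also lost without DMSO replicate 2 (0.0852, 0.0742 and 0.0514), the Fucotrim I call without Fucotrim I replicates 1 or 3 (0.0903 and 0.0943), and the P-SiaFNEtoc call without P-SiaFNEtoc replicate 2 (0.126). With SGN-2FF it was called lower without DMSO replicate 1 (-0.22, 0.0282).

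XRCC3 was higher with SGN-2FF, a result that depended on the libraries and on the GC correction. It had 51.6, 53.7 and 53 CPM in DMSO, 56, 53.4 and 62.5 with Fucotrim I, 53.7 and 50.2 with Fucotrim II, 60, 61.5 and 55.2 with SGN-2FF and 51.9, 54.7 and 54.7 with P-SiaFNEtoc. The SGN-2FF libraries were above all DMSO libraries (0.17 ± 0.05, adjusted p = 0.024), a call lost without DMSO replicates 1 or 3 or without SGN-2FF replicates 1 or 2 (adjusted p = 0.0753 to 0.165). With Fucotrim I it was called higher without Fucotrim I replicate 2 (0.17, adjusted p = 0.0422). Under the GC correction the rise with SGN-2FF was not called (0.09, adjusted p = 0.205), XRCC3 was lower with Fucotrim II (-0.41, 0.00123), and the values with Fucotrim I and P-SiaFNEtoc turned negative (-0.12 and -0.08). The other uncorrected log2 fold changes were 0.12, -0.03 and 0.03, and 34.2% of the gene's exon bases lie opposite KLC1 on the other strand. RAD51D was lower with Fucotrim II (-0.51 ± 0.11, adjusted p = 0.00449) and was not called elsewhere. RAD51B, at 4.51, 5.44 and 5.57 CPM in DMSO, was called in no comparison, with log2 fold changes from -0.22 to 0.31 and 95% intervals as wide as -0.61 to 0.18.

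RAD51AP1, RAD54L and RAD54B, which act in strand exchange, were all lower with both Fucotrims. RAD51AP1 helps to join the strands, and RAD54L and RAD54B are motors that remodel the joined DNA. RAD51AP1 had 68.2, 76 and 68.7 CPM in DMSO, 43.2, 55.2 and 49.8 with Fucotrim I, 42 and 36.6 with Fucotrim II, 64.4, 65.6 and 80.2 with SGN-2FF and 65.7, 70.8 and 64.5 with P-SiaFNEtoc. Fucotrim libraries lay well below DMSO and the other groups overlapped with it. Its log2 fold change was -0.52 ± 0.08 (adjusted p = 1.81e-05) and -0.86 ± 0.09 (6.90e-05) with Fucotrim I and II. With SGN-2FF it was -0.01 (95% interval -0.17 to 0.15) and with P-SiaFNEtoc -0.08 (-0.19 to 0.03).

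RAD54B had 38.1, 37.9 and 35 CPM in DMSO, 25.4, 28.3 and 25.5 with Fucotrim I, 19.8 and 19.6 with Fucotrim II, 31.3, 34.7 and 33.6 with SGN-2FF and 29.8, 30 and 29.3 with P-SiaFNEtoc. All treated groups lay below DMSO, and the test was passed with Fucotrim I (-0.48 ± 0.07, adjusted p = 2.91e-05), Fucotrim II (-0.92 ± 0.08, 3.79e-05) and P-SiaFNEtoc (-0.32 ± 0.06, 0.000543). Its counts are uncertain, since 65.5% of its exon bases are shared with FSBP on the same strand. RAD54L had 35.3, 38.1 and 36.7 CPM in DMSO, 30.7, 31.1 and 28.5 with Fucotrim I, 30.3 and 28.4 with Fucotrim II, 42.7, 42.2 and 39.3 with SGN-2FF and 35.6, 34.3 and 37.9 with P-SiaFNEtoc. It was below DMSO with the Fucotrims (-0.28 ± 0.07, adjusted p = 0.00302, and -0.33 ± 0.08, 0.00706) and above it with SGN-2FF (0.19 ± 0.06, 0.0294). The rise was lost without DMSO replicates 1 or 3 or SGN-2FF replicates 1 or 2 (adjusted p = 0.0904 to 0.14), and 26.2% of the exon bases lie opposite LRRC41.

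In the Fanconi core complex, the large falls were those of FANCM and FANCB. FANCM is the translocase that carries the complex to DNA, FANCB belongs with FANCL, the ubiquitin ligase, to its catalytic module, and UBE2T is the E2 enzyme of that ligase. Of the 9 genes of this role, 6 were lower with either Fucotrim and 4 with P-SiaFNEtoc, and with SGN-2FF FANCC was lower and FANCA higher. FANCM had 28.8, 28.1 and 27.1 CPM in DMSO, 15.3, 19.4 and 16.7 with Fucotrim I, 17.3 and 12.6 with Fucotrim II, 22, 24.9 and 27.4 with SGN-2FF and 22.6, 22 and 18.5 with P-SiaFNEtoc. Libraries of the Fucotrims and P-SiaFNEtoc were all below DMSO, and 1 SGN-2FF library overlapped with it. The log2 fold change was -0.70 ± 0.09 (adjusted p = 3.28e-06) with Fucotrim I, -0.91 ± 0.13 (0.000333) for Fucotrim II, and -0.40 ± 0.07 (0.000304) with P-SiaFNEtoc. With SGN-2FF it was -0.16 ± 0.07 (adjusted p = 0.124), and it passed the test at -0.24 (0.0329) without SGN-2FF replicate 3.

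FANCB, a gene of chromosome X, had 5.83, 7.05 and 6.45 CPM in DMSO, 4.44, 4.86 and 4.35 with Fucotrim I, 2.77 and 2.6 with Fucotrim II, 5.98, 6.3 and 6.3 with SGN-2FF and 5.87, 6.24 and 5.67 with P-SiaFNEtoc. With Fucotrim II it stood at 0.415 times its DMSO level, a log2 fold change of -1.27 ± 0.17 (adjusted p = 0.000283), on counts as low as 46 in a library. With Fucotrim I the log2 fold change was -0.49 ± 0.14 (adjusted p = 0.00896, and 0.051 without DMSO replicate 2). With SGN-2FF and P-SiaFNEtoc it overlapped with DMSO, with 95% intervals of -0.31 to 0.22 and -0.38 to 0.14.

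UBE2T, the most abundant member per length, had 161, 179 and 165 CPM in DMSO, 149, 149 and 155 with Fucotrim I, 127 and 123 with Fucotrim II, 162, 158 and 160 with SGN-2FF and 145, 149 and 163 with P-SiaFNEtoc. The Fucotrim II libraries were below all others. Its log2 fold change was -0.15 ± 0.05 (adjusted p = 0.0259), -0.43 ± 0.07 (0.000752), -0.06 ± 0.04 (0.366) and -0.14 ± 0.05 (0.0349) with Fucotrim I, Fucotrim II, SGN-2FF and P-SiaFNEtoc. The Fucotrim I call was lost without DMSO replicates 2 or 3 or Fucotrim I replicate 1 (adjusted p = 0.0524 to 0.169), and the P-SiaFNEtoc call without DMSO replicates 2 or 3 or P-SiaFNEtoc replicates 1 or 2 (0.0595 to 0.177).

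The other core genes moved less. FANCC was lower with SGN-2FF (-0.18), Fucotrim I (-0.20) and Fucotrim II (-0.40), and FANCL with Fucotrim I (-0.23), Fucotrim II (-0.37) and P-SiaFNEtoc (-0.25). FANCG was called with Fucotrim I (-0.14) and FANCE with Fucotrim II (-0.28), both close to the threshold (adjusted p = 0.0453 and 0.0475). FANCA was lower with P-SiaFNEtoc (-0.19 ± 0.05, adjusted p = 0.0184) and higher with SGN-2FF (0.17 ± 0.06, 0.0266). Of these 10 calls, that of FANCC with Fucotrim II and that of FANCL with P-SiaFNEtoc were kept without any 1 library. FANCC was lost with Fucotrim I without DMSO replicate 1 or Fucotrim I replicate 2 (adjusted p = 0.109 and 0.0591), and with SGN-2FF without DMSO replicate 1 or SGN-2FF replicates 1 or 2 (0.0599 to 0.122). FANCL was lost with Fucotrim I without DMSO replicates 2 or 3 or Fucotrim I replicate 1 (0.0639 to 0.0851), and with Fucotrim II without any 1 of the DMSO libraries or Fucotrim II replicate 2 (0.0512 to 0.12). The call of FANCG was lost without any 1 of the DMSO libraries or Fucotrim I replicates 1 or 3 (0.0823 to 0.171), and that of FANCE without any 1 of the DMSO libraries or Fucotrim II replicate 2 (0.0582 to 0.153). FANCA was lost with P-SiaFNEtoc without DMSO replicate 3 or P-SiaFNEtoc replicates 2 or 3 (0.0538 to 0.179), and with SGN-2FF without DMSO replicates 1 or 2 or SGN-2FF replicates 1 or 2 (0.0692 to 0.142). New calls came for FANCG with Fucotrim II without Fucotrim II replicate 2 (-0.19, adjusted p = 0.0177), for FANCA with Fucotrim II without Fucotrim II replicate 1 (-0.26, 0.0111) and for FANCE with P-SiaFNEtoc without P-SiaFNEtoc replicate 2 (-0.35, 0.0286).

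FANCF, a core gene of 1 exon, was called nowhere, with log2 fold changes from -0.08 to 0.03. The counts of FANCA and FANCL share exon bases with genes on the opposite strand (27.4% with ZNF276 and 27.3% with VRK2), and the strand setting of the counting is not given in the sources used here.

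Of the pair that the core complex modifies, FANCI was lower with both Fucotrims and FANCD2 was not called in the main edgeR fits. FANCD2 had 116, 141 and 123 CPM in DMSO, 119, 122 and 127 with Fucotrim I, 124 and 94.9 with Fucotrim II, 123, 138 and 133 with SGN-2FF and 116, 117 and 118 with P-SiaFNEtoc. Its groups overlapped in every comparison and none passed the test, the widest interval being -0.48 to 0.05 with Fucotrim II. A replicate block called FANCD2 lower with Fucotrim II. It was lower with Fucotrim II without replicate 1 of that group (-0.42, adjusted p = 0.00626), higher with SGN-2FF without DMSO replicate 2 (0.15, 0.0274) and lower with P-SiaFNEtoc without DMSO replicate 1 (-0.17, 0.0278).

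FANCI, its partner, had 160, 175 and 164 CPM in DMSO, 143, 153 and 138 with Fucotrim I, 122 and 119 with Fucotrim II, 160, 166 and 161 with SGN-2FF and 164, 160 and 158 with P-SiaFNEtoc. Both Fucotrims brought it below all DMSO libraries, at -0.20 ± 0.05 (adjusted p = 0.00576, and 0.0508 without Fucotrim I replicate 3) and -0.47 ± 0.07 (0.00036). With SGN-2FF and P-SiaFNEtoc the 95% intervals were -0.11 to 0.07 and -0.13 to 0.04. A test of FANCD2 against FANCI was not made. BRIP1, the helicase FANCJ that binds BRCA1, had 47.5, 46.7 and 43.4 CPM in DMSO, 35.3, 39.4 and 37.5 with Fucotrim I, 35.8 and 26.9 with Fucotrim II, 42.7, 41.2 and 44.3 with SGN-2FF and 37.6, 37.3 and 35 with P-SiaFNEtoc. It was lower with Fucotrim I (-0.29 ± 0.07, adjusted p = 0.00167), Fucotrim II (-0.56 ± 0.12, 0.00323) and P-SiaFNEtoc (-0.32 ± 0.06, 0.00025).

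The nucleases and their scaffold were called in no comparison in edgeR, DESeq2 or limma-voom, with each inhibitor fitted alone with DMSO and all libraries. These fits had a threshold of 0.05 on the adjusted p, no replicate block and no GC correction. A single fit of all 14 libraries called MUS81 higher with Fucotrim II, and a replicate block called SLX4 lower with it. MUS81 and EME1 form a nuclease that cuts branched DNA, and SLX4 holds nucleases together. MUS81 had positive values without the GC correction, with log2 fold changes of 0.12, 0.16, 0.12 and 0.14 for Fucotrim I, Fucotrim II, SGN-2FF and P-SiaFNEtoc and adjusted p of 0.157, 0.102, 0.165 and 0.1. Under the correction the MUS81 values with the Fucotrims turned negative (-0.07 and -0.17, adjusted p of 0.402 and 0.0867). EME1 lay between -0.14 and 0.06 and SLX4 between -0.19 and -0.10. EME1 was called lower with Fucotrim II without Fucotrim II replicate 1 (-0.30, adjusted p = 0.0107) and with P-SiaFNEtoc without DMSO replicate 1 (-0.21, 0.0377). At an unadjusted p under 0.05, the 3 genes gave 2 lower and 1 higher with P-SiaFNEtoc and 0 with the other inhibitors, again with no share of all genes to set beside them.

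Among the checkpoint kinases, CHEK1 and CHEK2 were lower with both Fucotrims. In the main edgeR fits, with all libraries, no replicate block and no GC correction, ATM and ATR were not called. ATM and ATR sense broken and stalled DNA, and CHEK2 and CHEK1 are the kinases they activate. CHEK1 had 76.1, 78.5 and 77.3 CPM in DMSO, 55.1, 55 and 50.7 with Fucotrim I, 52.2 and 52.3 with Fucotrim II, 66.5, 76.3 and 74.1 with SGN-2FF and 69.6, 72.6 and 77.7 with P-SiaFNEtoc. Every Fucotrim library lay below every DMSO library, at -0.52 ± 0.06 (adjusted p = 6.90e-07) and -0.57 ± 0.06 (0.000112). With SGN-2FF (-0.08, 95% interval -0.19 to 0.03) and P-SiaFNEtoc (-0.08, -0.18 to 0.02) the groups overlapped, and 18.2% of its exon bases lie opposite another annotated gene. CHEK2 was lower with Fucotrim I (-0.17 ± 0.07, adjusted p = 0.0412) and Fucotrim II (-0.28 ± 0.07, 0.00746). The Fucotrim I call was lost without any 1 of the DMSO libraries or without Fucotrim I replicates 1 or 3 (0.0688 to 0.186), and with P-SiaFNEtoc CHEK2 was called without P-SiaFNEtoc replicate 1 (-0.19, 0.0474).

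ATM had 38.6, 41.6 and 37 CPM in DMSO, 40.7, 39 and 40.9 with Fucotrim I, 43.1 and 32.2 with Fucotrim II, 35.4, 42.2 and 42.7 with SGN-2FF and 37.2, 33.7 and 32.7 with P-SiaFNEtoc. All groups overlapped with DMSO, and the log2 fold changes were 0.04 ± 0.07, -0.06 ± 0.12, 0.05 ± 0.07 and -0.17 ± 0.06, with adjusted p of 0.642, 0.702, 0.638 and 0.0645. With P-SiaFNEtoc the replicate block and another alternative with all libraries called ATM lower. The Fucotrim II libraries stood on either side of DMSO, and without replicate 1 of that group ATM was called lower (-0.28, adjusted p = 0.00934); with P-SiaFNEtoc it was called lower without P-SiaFNEtoc replicate 1 (-0.23, 0.025). ATR ranged from -0.09 with P-SiaFNEtoc to 0.13 with Fucotrim I, where its 3 libraries were above DMSO without passing the test (adjusted p = 0.14). With Fucotrim II its libraries were 43.3 and 34 CPM, and it was called higher without Fucotrim II replicate 2 (0.23, 0.0357). Under the GC correction both kinases were higher with Fucotrim I (given above) and with Fucotrim II (ATM 0.24, adjusted p = 0.0248, and ATR 0.34, 0.00435).

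POLQ encodes the polymerase of theta-mediated end joining, an error-prone pathway that repairs breaks when homologous recombination fails. It had 52.6, 53.1 and 51.2 CPM in DMSO, 42.5, 48 and 45.4 with Fucotrim I, 37.6 and 32.2 with Fucotrim II, 46.3, 51.1 and 48.3 with SGN-2FF and 44.2, 41.3 and 42.3 with P-SiaFNEtoc. Every treated library was below the DMSO libraries. The log2 fold change was -0.20 ± 0.06 (adjusted p = 0.014, and 0.0735 without Fucotrim I replicate 1) with Fucotrim I, -0.59 ± 0.08 (0.000405) for Fucotrim II, and -0.29 ± 0.05 (0.000304) with P-SiaFNEtoc. Under the GC correction the Fucotrim I value was -0.07 and not called (adjusted p = 0.327). With SGN-2FF it was -0.09 ± 0.06 (adjusted p = 0.247).

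**Figure D4:**
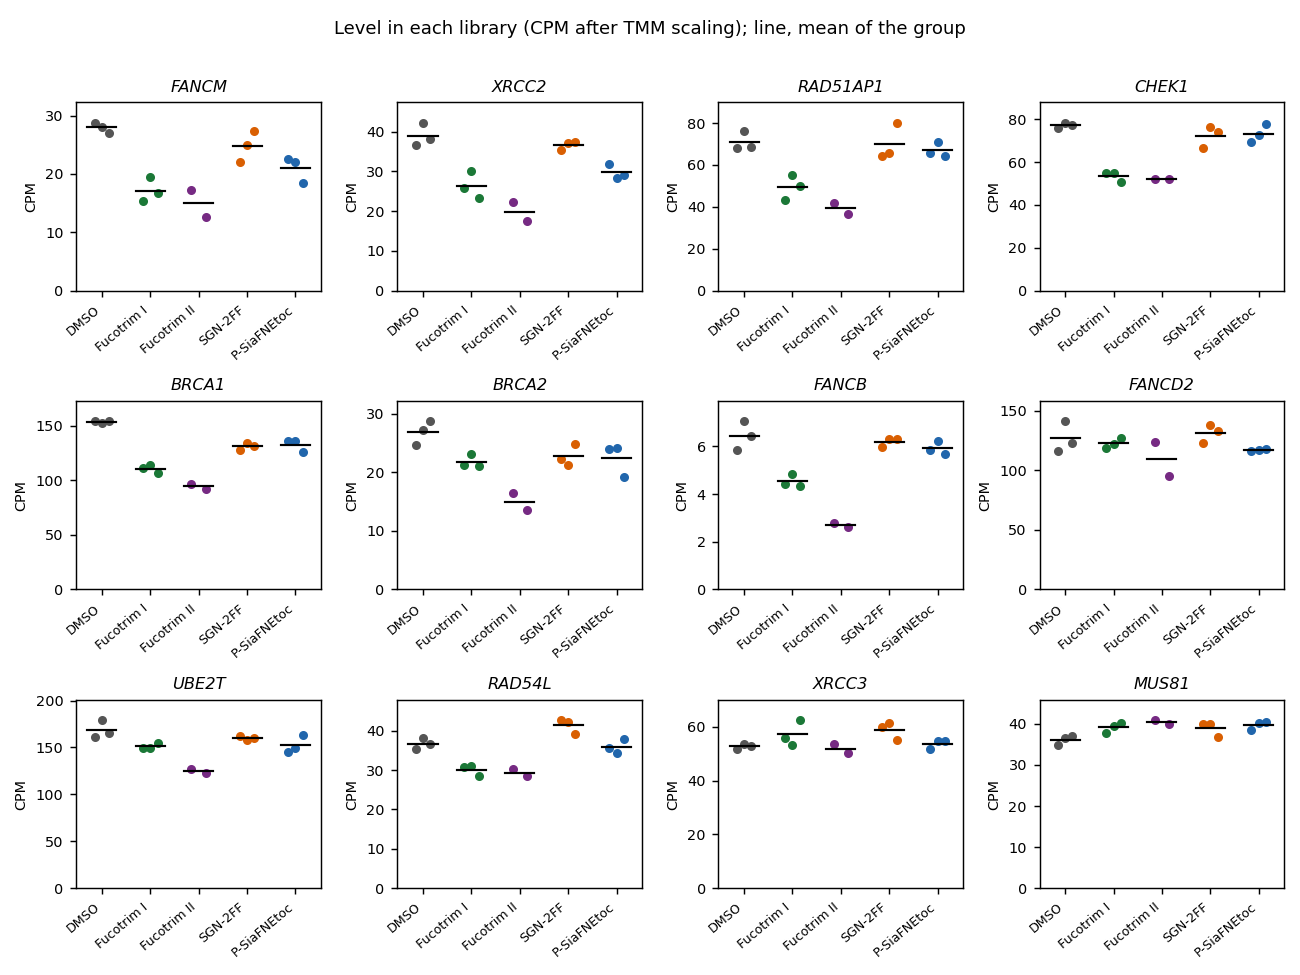
Level of 12 members in each of the 14 libraries (CPM after TMM scaling, axis from 0), with the mean of each group as a line. FANCM, XRCC2 and BRCA1 are below DMSO in all libraries of the Fucotrims and P-SiaFNEtoc, RAD51AP1 and CHEK1 in those of the Fucotrims, FANCD2 overlaps throughout, and the MUS81 means are not below DMSO in any group.

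In the main edgeR fits, with all libraries, no replicate block and no GC correction, 9 members were called in no comparison. They were PALB2, RAD51B, FANCD2, FANCF, ATM, ATR, EME1, MUS81 and SLX4. Alternatives with all libraries and no GC correction called MUS81 higher and FANCD2 and SLX4 lower with Fucotrim II, and ATM lower with P-SiaFNEtoc. The pair of Fucotrim II libraries differed from each other in several members. Replicate 2 was below replicate 1 for FANCD2, ATM, ATR, MRE11, DNA2, BLM and BRIP1, for example at 28 and 18.9 CPM for DNA2 and 32.3 and 24.8 for BLM (replicate 1 first). Without replicate 1 a single Fucotrim II library remained, so calls from such fits rest on the spread of the DMSO libraries alone.

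Genes of the same pathways outside the 39 were called in both directions, the higher ones no more often than among all genes. Of 46 other genes of homologous recombination and Fanconi repair, 44 were tested with Fucotrim I, where 16 were lower and 8 higher (median log2 fold change -0.08). With Fucotrim II 15 of 45 were lower and 8 higher (median -0.17), with SGN-2FF 6 and 2 of 44 (median 0.01), and with P-SiaFNEtoc 7 and 2 of 44 (median -0.02). In this order the shares lower were 36.4%, 33.3%, 13.6% and 15.9%, against 22.1%, 25.7%, 9.08% and 7.33% of all genes. The shares higher were 18.2%, 17.8%, 4.55% and 4.55%, against 21.6%, 25.6%, 11.5% and 9.02%.

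The largest fall of this list was that of MCM8, a helicase of recombination, with Fucotrim I (-0.63 ± 0.06, adjusted p = 4.14e-08) and Fucotrim II (-0.85 ± 0.08, 4.60e-05). With SGN-2FF it was that of RMI1, a partner of BLM (-0.23 ± 0.06, 0.00724), and with P-SiaFNEtoc that of GEN1, a resolvase of crossed strands (-0.33 ± 0.06, 0.000294). The largest rise was that of RTEL1, a helicase, with Fucotrim I (1.05 ± 0.27, 0.00358) and Fucotrim II (1.37 ± 0.26, 0.00203), at only 1.04, 1.67 and 1.06 CPM in DMSO. ERCC1, part of the nuclease that unhooks crosslinks, had the largest called rise with SGN-2FF (0.36 ± 0.07, 0.000383) and P-SiaFNEtoc (0.31 ± 0.07, 0.00161). The highest values of the list, 0.46 with SGN-2FF and 0.45 with P-SiaFNEtoc, were not called. Of 15 tested genes of non-homologous end joining, which rejoins ends without a template, 7 were lower and 2 higher with Fucotrim I, 8 and 4 with Fucotrim II, 2 and 2 with SGN-2FF, and 2 and 0 with P-SiaFNEtoc. As shares these were 46.7% and 13.3%, 53.3% and 26.7%, 13.3% and 13.3%, and 13.3% and 0%, beside the shares of all genes given above.

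Cell cycle genes also fell, though not always in the same measure as the members. Of 15 S phase genes that are no members, 13 were lower with Fucotrim I, 13 with Fucotrim II (and 1 higher), 3 with SGN-2FF and 6 with P-SiaFNEtoc (and 1 higher). Their median log2 fold changes were -0.20, -0.43, -0.06 and -0.07. Of 15 genes of the G2 and M phases, 13, 15, 7 and 12 were lower, with medians of -0.28, -1.05, -0.11 and -0.20. The members' medians were -0.20, -0.40, -0.06 and -0.16, and 22.1%, 25.7%, 9.08% and 7.33% of all genes were lower. With SGN-2FF 46.7% of the G2 and M genes were lower, against 12.8% of the members. The proliferation marker MKI67 changed by -0.14 ± 0.05, -0.81 ± 0.06, -0.12 ± 0.03 and -0.20 ± 0.04 and the topoisomerase TOP2A by -0.26 ± 0.05, -0.93 ± 0.07, -0.17 ± 0.04 and -0.28 ± 0.04, all called. PCNA, the replication clamp, was lower with Fucotrim I, Fucotrim II and P-SiaFNEtoc (-0.22, -0.37 and -0.17), and MCM5 of the replicative helicase with Fucotrim I and Fucotrim II (-0.18 and -0.33). In these bulk libraries fewer cells in S and G2 phase and less RNA per cell cannot be told apart, and the part of the cell cycle in the members' falls was not tested.

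**Figure D5:**
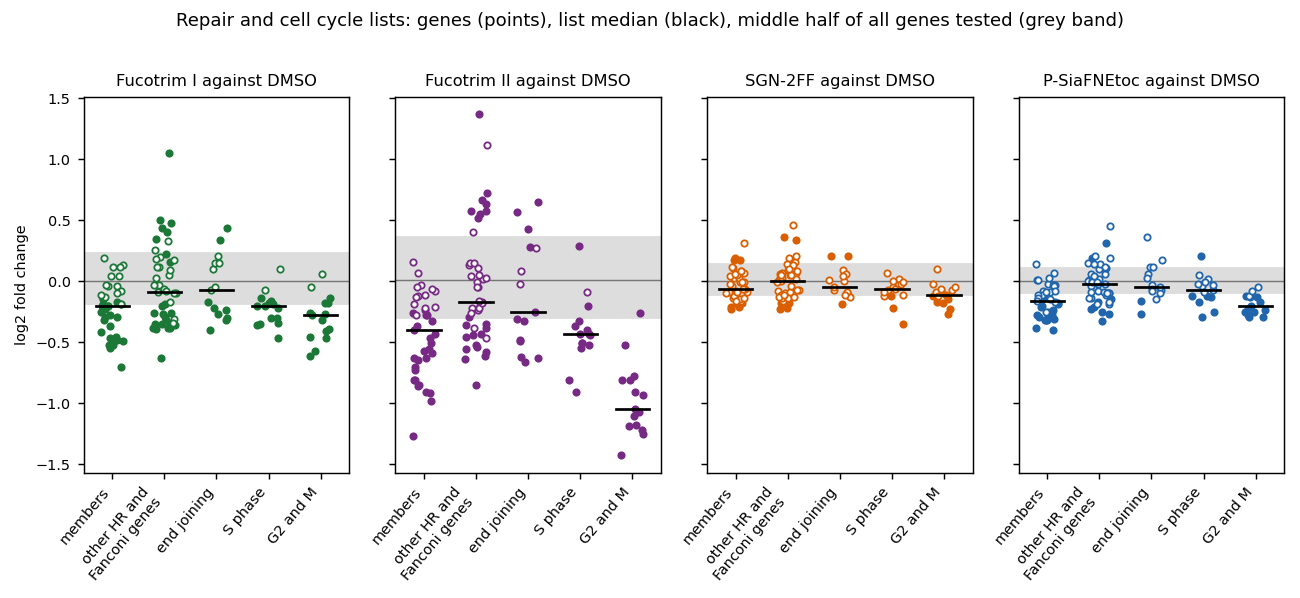
log2 fold change of each gene (filled, adjusted p under 0.05 in edgeR) in the 39 members and 4 other lists, with the list median (black line) and the range from the 25% to the 75% quantile of all genes tested (grey band). With Fucotrim II the members' median of -0.40 lies near that of the S phase genes (-0.43) and above that of the G2 and M genes (-1.05), while the other recombination genes spread to both sides of 0.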

How the data were processed

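RNA was sequenced from 14 libraries of CWR22Rv1 cells in 5 groups. The authors trimmed single reads of stranded mRNA libraries with Cutadapt, aligned them to hg38 with HISAT2, counted them with featureCounts and deposited whole-number counts, in 4 tables that repeat the DMSO libraries. The annotation and the strand setting are not given in the sources used here. SGN-2FF genes were matched to symbols by NCBI gene number.

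Each inhibitor was fitted alone with DMSO in edgeR 4.0.16 (filterByExpr with a minimum count of 10 and total of 15, TMM, robust quasi-likelihood test, Benjamini-Hochberg adjustment over all genes tested, called under 0.05). SE is the log2 fold change divided by the square root of F. CPM per library used 1 TMM scaling of all 14 libraries, and a range or overlap of libraries refers to it. Libraries held 12553094 to 19981453 counts, which limits the precision of low members. The labels and the study's methods call the replicates biological. Transcript GC content and lengths came from GENCODE transcripts of hg38, and promoters from RefSeq. Values were given per library for the 4 largest called members of each comparison with libraries that do not overlap. They were also given for 12 members standing for the roles. Of the list of other pathway genes, the largest called fall and rise were given. The rule also named a gene outside the members that is not reported here. The members and lists were chosen with earlier results of these data known. Alternatives were each library left out, the replicate number as a block, DESeq2 1.42.0 (test and size factors), limma-voom (limma 3.58.1), other filters, 1 fit of all libraries, a threshold of 0.01 and, added after seeing the data, GC corrections.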

Additional observations from a re-analysis of the deposited data

How the results depend on the processing

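The members called lower numbered 17 to 24 with Fucotrim I (24 with all libraries), 22 to 31 with Fucotrim II (26), 1 to 6 with SGN-2FF (5) and 13 to 20 with P-SiaFNEtoc (18) when libraries were left out in turn, and those called higher 0 to 1, 0 to 1, 0 to 3 and 0 to 0. Over the same fits the genes called numbered 1642 to 3109 with SGN-2FF (2946 with all libraries) and 1516 to 2115 with P-SiaFNEtoc (2331). DESeq2's test called 3 members lower and 0 higher of 1848 genes with SGN-2FF, and 1368 genes with P-SiaFNEtoc. A single fit of all 14 libraries called 1 member (MUS81) higher with Fucotrim II, 0 higher of 1695 genes with SGN-2FF, and 10 members lower of 998 genes with P-SiaFNEtoc. At a threshold of 0.01, 3 members were lower and 0 higher of 1609 genes with SGN-2FF, and 1171 genes were called with P-SiaFNEtoc. The GC correction gave 2 members higher with each Fucotrim, and the correction for GC and length 3 with Fucotrim I and 2 with Fucotrim II. RAD50 changed sign under the latter with Fucotrim I (0.13) and Fucotrim II (0.08), and ATM with Fucotrim II under both (0.24 and 0.30). The causes of these changes were not tested.

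Deviations of same-numbered libraries correlated weakly at most, and the numbers were not read as pairs. The r was 0.13, 0.11 and 0.02 with Fucotrim I, and -0.15 and -0.19 with Fucotrim II by the numbers of its titles. By those of its library names it was 0.19 and 0.05, and it was -0.10 to 0.02 elsewhere. With the replicate numbers of the titles as a block, genes called went from 6209 to 7288 with Fucotrim I and from 7511 to 5300 with Fucotrim II. They went from 2946 to 2868 with SGN-2FF and from 2331 to 2674 with P-SiaFNEtoc. By the library names of Fucotrim II 7779 were called. Whether equal numbers mark a shared batch was not tested. With the replicate block of the titles, 24, 20, 5 and 21 members were lower for Fucotrim I, Fucotrim II, SGN-2FF and P-SiaFNEtoc, and with that of the library names of Fucotrim II 28 were. With Fucotrim II the titles' block did not call RAD51C, RAD54L, RAD50, FANCE, FANCL and CHEK2, and with P-SiaFNEtoc it called FANCE, ATM and CHEK2. New calls under a replicate block with Fucotrim II were those of FANCD2, MRE11 and SLX4. Of 2340 member values under all alternatives, 2126 kept their side of the threshold, 159 lost a call, 51 gained one and 4 changed sign with a call. A further 74 changed sign with neither value called, and are counted among the 2126. Depth limits the lowest members, FANCB and RAD51B, most.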
